A study of Mus musculus with 12 samples.

Results

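The genes described here are 39 interferon-stimulated genes, chosen by symbol from a list of genes known to respond to interferon, out of 23420 gene symbols in a mouse RNA-seq table. All 39 were above 0 in at least 1 library, and 37 passed the filter for testing, which asked for a value above 0 in at least 3 of 12 libraries. The 2 that did not pass were Zbp1 and Mx2. The libraries were made from epidermal cells taken by flow cytometry through a CD45+CD3-CD11b+MHCII+ gate, which holds Langerhans cells, the dendritic-like macrophages of the epidermis, and related myeloid cells. There were 4 groups of 3 libraries each, namely wild-type mice 5 days after birth (P5 wild type), Cbfβ2 knockout mice of that age (P5 knockout), wild-type mice 1.5 months after birth (1.5M wild type) and Cbfβ2 knockout mice of that age (1.5M knockout). Cbfβ2 is a splice form of Cbfβ, the partner subunit of the Runx transcription factors. The labels give neither strain, sex nor any Cre or promoter, and describe the 3 replicates of a group as separate library preparations, each from a tube of 100 cells, so the p-values measure the spread between preparations, which may be technical.

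Interferons are secreted proteins that cells release on sensing viral nucleic acid or on immune activation. Type I interferons bind the receptor made of IFNAR1 and IFNAR2, and interferon gamma binds the receptor made of IFNGR1 and IFNGR2. Both receptors act through Janus kinases and STAT proteins. A complex that holds STAT2 and IRF9 binds the interferon-stimulated response element (ISRE) of target genes, while STAT dimers bind the gamma-activated site (GAS). The induced proteins detect viral RNA, block viral entry or replication, and feed back on the pathway. Myeloid cells of barrier tissues hold part of this programme without overt infection.

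The values are molecule-barcoded counts that were scaled so that each library totals 37092, here called scaled counts. Each library held from 30913 to 52208 molecules, except the 3 of the 1.5M knockout, which held 74620 to 77419. Their depth difference from the 1.5M wild type and that from the P5 knockout (exact permutation tests, two-sided, p = 0.1 for each) are at the smallest p that 3 against 3 libraries can give, and depth and group cannot be told apart in either comparison. At this depth 3 molecules over a group amount to a mean scaled count of 0.895 in P5 wild type, 0.907 in P5 knockout, 0.831 in 1.5M wild type and 0.485 in 1.5M knockout. These floors cover counting error only, and a gene at 0 in a whole group may have a mean up to that level. A fold given below as "at least" a value divides the other group's observed mean by that floor. It leaves out the error of that observed mean, so it is not a confidence bound. Differences are limma estimates on log2(scaled count + 1), called log2 fold changes, each with a standard error (SE) and a Benjamini-Hochberg adjusted p over the 10023 genes tested, and a gene is said to rise or fall only where that p is under 0.05. In bulk libraries such as these, fewer cells of a type and less RNA per cell cannot be told apart.

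The gate genes Ptprc, Itgam and H2-Ab1 were above 0 in all 12 libraries and Cd3e was at 0 in all of them. Cd207, which encodes langerin, the defining protein of Langerhans cells, was at 0.711, 1.08 and 2.93 in P5 wild type, at 0 in the 3 P5 knockout libraries, at 18.7 to 24.9 in the 1.5M knockout and at 189 to 252 in the 1.5M wild type. Cbfb, the targeted gene, was at 3.91 to 4.97 in P5 wild type, 1.46 to 3.63 in P5 knockout, 7.15 to 13.8 in 1.5M wild type and 0.994 to 2.40 in 1.5M knockout. Its fall at 1.5M passed the limma test (log2 fold change -2.05, SE 0.39, adjusted p = 0.00132) and its difference at P5 did not (-0.67, SE 0.39, adjusted p = 0.490). These are values of the whole gene, not of the Cbfβ2 splice form alone.

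RefSeq promoter windows of build GRCm38.p6, each running from 250 bases before to 50 bases after a transcription start, were matched for 30 of the 39 genes. Those without a matched window are Dhx58, Ifi27l2a, Ly6e, Mx1, Mx2, Parp14, Rtp4, Usp18 and Zbp1. The core letters of the ISRE, which are TTTC, any 2 bases and TTTC again, on either strand, were found in 17 of the 30 (56.7%), against 1079 of 27025 genes in the same table (3.99%) and 1131 of 32851 windows (3.44%). The letters of the GAS, TTCNNNGAA, which read the same on both strands, were found in 8 of the 30 (26.7%), against 9.55% of all genes and 8.3% of all windows, and the 2 searches can overlap each other. A match of letters is a description of the sequence and does not show that a factor binds there. The stretches below show the matches of Ifitm2 and Ifitm3, genes of one family on the same chromosome that had different patterns over the groups, and of 4 genes known for strong induction by interferon that were low here. All are given 5′ to 3′ on the gene's own strand, with the ISRE core letters in capitals. A match to the opposite strand reads GAAA, any 2 bases and GAAA.
Ifitm2 (chr7:140955962-140956021, minus strand, ending at the base before the start): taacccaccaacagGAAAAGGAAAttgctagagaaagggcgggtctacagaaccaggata
Ifitm3 (chr7:141010715-141010744, minus strand, the first 30 transcribed bases): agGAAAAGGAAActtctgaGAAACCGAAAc
Isg15 (chr4:156200849-156200908, minus strand, 90 to 31 bases before the start): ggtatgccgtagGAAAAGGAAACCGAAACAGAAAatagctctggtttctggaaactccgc
Ifit1 (chr19:34640779-34640838, plus strand, 110 to 51 bases before the start): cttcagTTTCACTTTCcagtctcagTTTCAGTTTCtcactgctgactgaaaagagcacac
Ifit3 (chr19:34583369-34583428, plus strand, 160 to 101 bases before the start): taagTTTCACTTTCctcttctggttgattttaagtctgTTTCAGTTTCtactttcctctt
Gbp3 (chr3:142559984-142560043, plus strand, ending at the base before the start): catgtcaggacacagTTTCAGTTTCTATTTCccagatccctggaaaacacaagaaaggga
In Isg15 and Gbp3 the matches overlap one another, and in Ifit1 and Ifit3 they stand apart. Of the 7 genes that passed the limma test in some comparison, Ifitm2 and Ifitm3 hold the letters, Ifi44, Irf9 and Lgals3bp have no match in their windows, and Ifi27l2a and Ly6e had no window.

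Most of the 39 genes were low. Averaged over all 12 libraries, 24 had a mean scaled count under 1, 12 lay between 1 and 5, and 3 stood higher, namely Ly6e at 14.2, Ifitm2 at 13.6 and Ifitm3 at 5.76. Only Ifitm2, Xaf1 and Ly6e were above 0 in all 12 libraries. The summed scaled count of the 39 was 83.4, 80.2 and 78.6 in the P5 wild-type libraries, 113, 107 and 96.3 in the P5 knockout, 36.6, 34.2 and 37.2 in the 1.5M wild type, and 83.6, 56.9 and 62.2 in the 1.5M knockout. The 1.5M wild-type libraries were thus the lowest of all 12 and the P5 knockout libraries the highest, and no group's sums overlapped those of another except P5 wild type and 1.5M knockout. Without Ly6e, Ifitm2 and Ifitm3 the sum of the other 36 was 41.2 to 46.5 in P5 wild type, 54.3 to 74.8 in P5 knockout, 8.91 to 13.5 in 1.5M wild type and 29.1 to 54.9 in 1.5M knockout. In the 1.5M knockout the highest of these, 54.9, was replicate 1, with replicates 2 and 3 at 32.55 and 29.1. Ly6e, Ifitm2 and Ifitm3 made up 70.3% of the sum of the 39 in 1.5M wild type and 41.2% to 45.5% of it in the other groups.

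**Figure D1:**
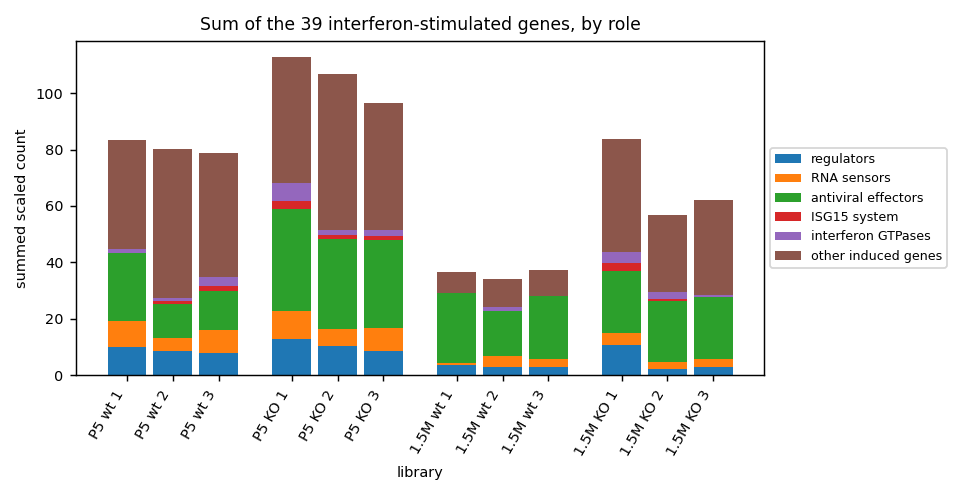
Summed scaled count of the 39 interferon-stimulated genes in each of the 12 libraries (bars, from 0), coloured by the 6 roles of the genes. The 3 bars of the 1.5M wild type reach 34.2 to 37.2 and are mostly antiviral effectors, chiefly Ifitm2, while the P5 knockout bars reach 96.3 to 113.

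Genes at 0 in all 3 libraries of a group were most numerous in the adult wild type. There, 21 of the 39 were at 0 (53.8%), among them the regulators Irf7 and Irf9, Isg15, the 3 Ifit genes, Mx1, Mx2, Rsad2, Ifitm3 and Ifi27l2a. The number at 0 was 6 in P5 wild type (Dhx58, Zbp1, Ifit2, Mx2, Isg20 and Gbp3), 1 in P5 knockout (Gbp2) and 1 in 1.5M knockout (Mx2). Among the 37 tested genes 19 were at 0 in 1.5M wild type (51.4%), where 16.9% of all tested genes were at 0. The numbers in the other groups were 4 in P5 wild type, 1 in P5 knockout and 0 in 1.5M knockout, where 7.85%, 8.31% and 6.65% of all tested genes were at 0. Limited to tested genes with a mean under 1, which are more often at 0, it was 15 of 22 (68.2%) against 32.1% of all such genes in 1.5M wild type, 4 of 22 (18.2%) against 16.2% in P5 wild type, 1 of 22 (4.55%) against 17.2% in P5 knockout and 0 of 22 against 13.4% in 1.5M knockout. When all libraries were thinned to the same 30865 molecules, 22 of the 39 were at 0 in 1.5M wild type, 10 in P5 wild type, 5 in P5 knockout and 8 in 1.5M knockout, where 24.1%, 13.3%, 13.4% and 19.5% of all tested genes were at 0. In this single random thinning the knockout groups were near the share of all tested genes, and both wild-type groups were above it. That share is not matched for level. Among genes with a mean under 1, before thinning, P5 wild type was close to its background (18.2% against 16.2%), so its excess after thinning is not shown to belong to the set. The thinned counts of the 39 include Zbp1 and Mx2, which did not pass the filter, while the shares are over tested genes only.

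**Figure D2:**
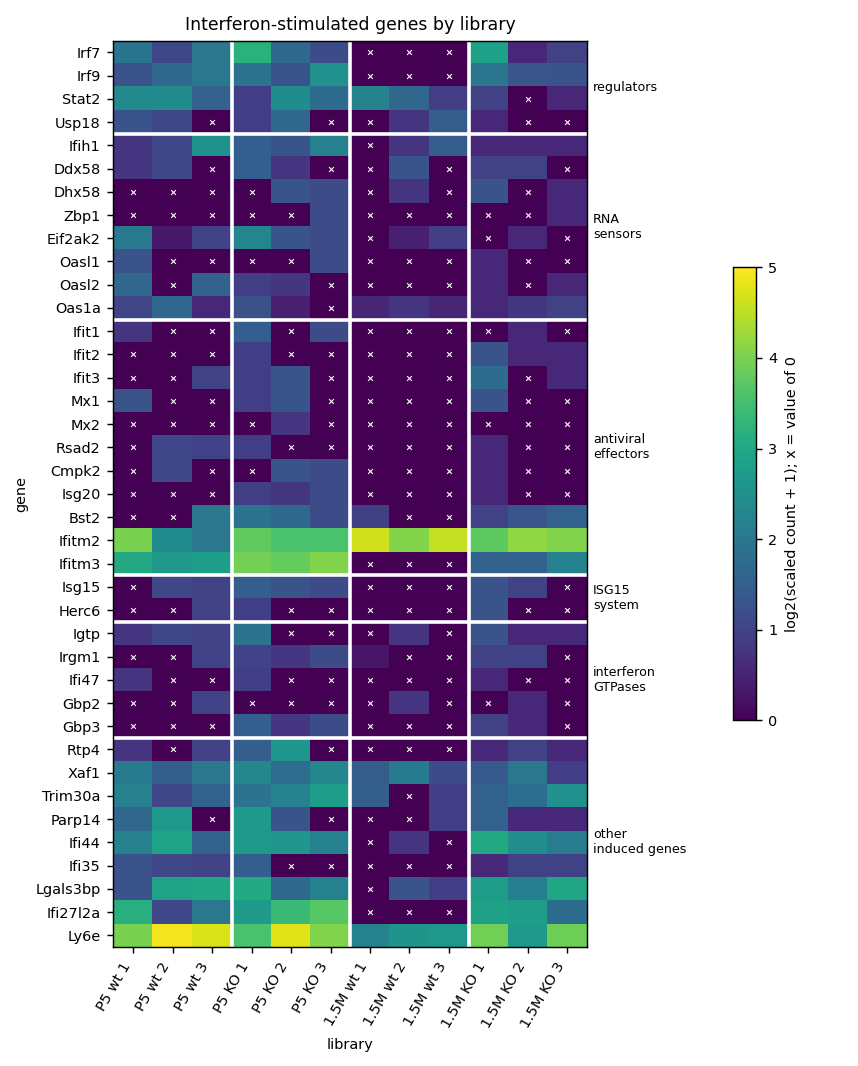
log2(scaled count + 1) of the 39 genes (rows, grouped by role) in the 12 libraries (columns, 3 per group), with a cross where the value was 0. Ly6e and Ifitm2 are bright in most columns, and the 1.5M wild-type columns hold 21 genes with crosses in all 3 libraries.

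The comparison of knockout with wild type at 1.5M sets gated adult cells of the 2 genotypes side by side, which also differed in depth and in cell markers. In it 4 of the 37 tested genes rose and 0 fell, where 3.24% of all tested genes rose and 2.04% fell. The 4 were Ifi44, Ifi27l2a, Ifitm3 and Lgals3bp. The libraries of the 2 groups did not overlap for 12 genes, all higher in the knockout, against 13.9% of all tested genes for that direction and 7.18% for the other. The median log2 fold change of the 37 was 0.43, against 0.09 over all tested genes, and -0.05 with the 19 genes that had a group at 0 set at that group's floor. Those 19 entered as log2 ratios of group means without the added 1, and the rest as limma estimates. The -0.05 is thus on a mixed scale, takes each 0 at its upper limit, and has no counterpart over all tested genes. At P5 the same comparison called 0 of the 37 by limma's adjusted p, where 1.8% of all tested genes passed, and voom, the other tool run, also called 0. Without the adjustment 5 were higher and 0 lower at p under 0.05, where 12.8% of all tested genes passed in either direction, and 4 genes did not overlap between the groups, all higher in the knockout (background 6.23%, and 6.02% for lower). The median at P5 was 0.28 against -0.01 over all tested genes. A test of whether the knockout difference itself changed between the ages called 0 of the 37, where 2% of all tested genes passed, 1.32% higher and 0.678% lower. Without the adjustment 4 were higher and 1 lower, where 13.3% passed, and voom called 1, Ifi44.

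**Figure D3:**
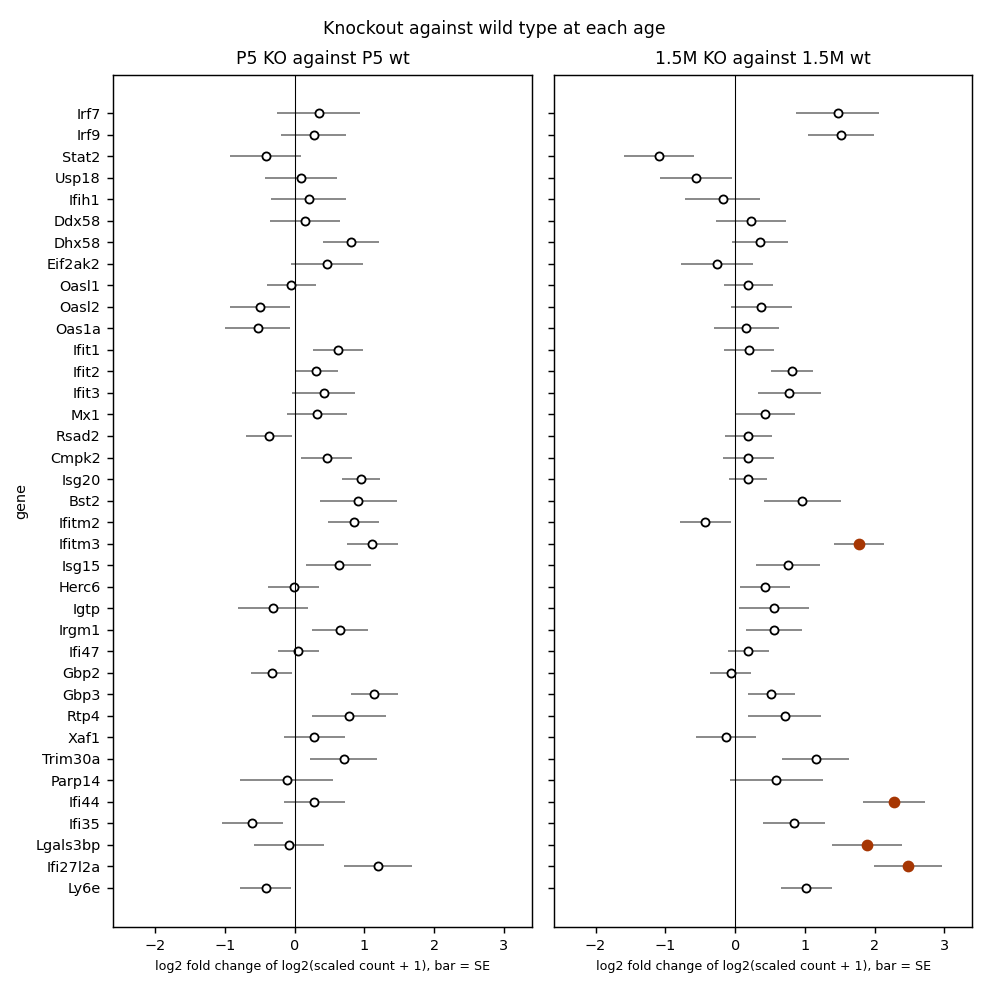
limma log2 fold change (points) and SE (bars) of the 37 tested genes for knockout against wild type at P5 (left) and at 1.5M (right), with filled points where the adjusted p was under 0.05. The 4 filled points on the right are Ifitm3, Ifi44, Lgals3bp and Ifi27l2a, and no point on the left is filled.

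From P5 to 1.5M in wild type, 5 of the 37 fell (Ifitm3, Ly6e, Ifi44, Ifi27l2a and Irf9) and 1, Ifitm2, rose, where 2.84% of all tested genes fell, 2.36% rose and 5.21% did either. This comparison shares the 1.5M wild-type libraries with the adult knockout comparison, so a low value there enters both. The groups did not overlap for 7 lower genes (background 13.2%) and 1 higher gene (background 6.06%). The median log2 fold change was -0.48, against -0.22 over all tested genes, and -0.30 with the 20 genes that had a group at 0 set at the floor. That last value mixes scales in the same way and has no counterpart over all tested genes. Another scaling of the libraries moved that background: under median-of-ratios scaling the calls among all genes were 286 higher and 183 lower, and under quantile normalization 277 and 226, against 237 and 285 as deposited, with the median log2 fold change of all tested genes at -0.11 and -0.06, against -0.22 as deposited. The directions of the 6 genes were the same under both, with the Irf9 call lost (adjusted p 0.0590 and 0.0817). In the knockout from P5 to 1.5M, 1 gene fell, Ifitm3, and 0 rose, where 1.43% of all tested genes fell, 1.72% rose and 3.14% did either. Of the 37, 4 were lower without overlap (background 10%) and 0 were higher (background 8.15%), and the median was -0.32 against -0.06.

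Markers of other cells moved with these groups. The summed level of macrophage and monocyte markers (11 of 12 listed genes matched) ran from 143 to 181 in P5 wild type, 193 to 236 in P5 knockout, 68.7 to 89.3 in 1.5M wild type and 533 to 609 in 1.5M knockout. Of its 10 tested genes 7 rose in the adult knockout. Cybb, Fcgr1, Ccr2 and Ly6c2 were at 0 in all 1.5M wild-type libraries. Ly6c2, which did not pass the filter, was also at 0 in all 1.5M knockout and P5 wild-type libraries. In 1.5M knockout the means of Cybb, Fcgr1 and Ccr2 were 55.65, 1.61 and 1.46, against 28.8, 5.82 and 18.1 in P5 knockout. Langerhans cell markers (7 of 7) summed to 1074 to 1193 in P5 wild type, 696 to 900 in P5 knockout, 2999 to 3302 in 1.5M wild type and 1587 to 1880 in 1.5M knockout. Cd74 alone had means of 753, 533, 1614 and 1049 in that order. Between adult wild type and knockout 5 of the 7 were lower and 2 higher in the knockout. The mean of Cd207 went from 214 to 21.0 and that of Epcam from 40.9 to 4.04. Those of Ptprc (16.2 to 34.2) and Itgam (4.69 to 11.2) went the other way. Plasmacytoid dendritic cell markers (7 of 7, with Klk1 and Cox6a2 at 0 in all 12 libraries and Bst2 also one of the 39 genes) summed to 10.7 to 18.4 in P5 wild type, 3.60 to 15.4 in P5 knockout, 0 to 3.69 in 1.5M wild type and 3.84 to 11.1 in 1.5M knockout. The genes of this sum did not move alike. In the same order of groups, Siglech had means of 6.36, 0.322, 0 and 0.373. The means of Tcf4 were 6.29, 6.25, 0.922 and 4.89, and those of Bst2 were 0.977, 2.04, 0.307 and 1.46. In the P5 knockout libraries keratinocyte markers (14 of 15) summed to 232 to 712, against 69.4 to 101 in P5 wild type, 11.8 to 41.5 in 1.5M wild type and 9.10 to 22.1 in 1.5M knockout. Neutrophil markers (9 of 10, with Mpo and Elane at 0 in all 12 libraries) summed to 47.7 to 240 in P5 knockout, 4.88 to 13.7 in P5 wild type, 0.193 to 8.41 in 1.5M wild type and 4.05 to 5.49 in 1.5M knockout. In both adult groups Cxcr2 was the only gene of this sum above 0, and it had fractional molecule counts in 11 of 12 libraries. Its mean was 6.8 in P5 wild type and 4.97 in P5 knockout, against the direction of the sum. Erythroid markers (6 of 6) were at 205, 267 and 0.792 in P5 knockout, at 0 to 2.84 in P5 wild type and at 0 in all adult libraries. T and NK cell markers (8 of 10) reached at most 2.73 in any library. The part of these cells in the results on the 39 genes was not tested.

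Among the regulators, IRF9 is the DNA-binding subunit of the complex it forms with STAT proteins. Irf9 (chr14:55603571-55610030, mm10) had scaled counts of 1.42, 2.17 and 2.93 in P5 wild type, 2.73, 1.46 and 4.80 in P5 knockout, 0 in all 3 libraries of 1.5M wild type, and 2.88, 1.49 and 1.44 in 1.5M knockout. The adult wild type was below all other libraries. Irf9 fell from P5 to 1.5M in wild type by 1.64 on the log2 scale (SE 0.47, limma adjusted p = 0.0436), at least 2.62-fold lower against the floor of 3 molecules over the group. That call was lost when any 1 library other than the 3 of P5 knockout was left out (adjusted p 0.0545 to 0.136), when only the 6 libraries compared were fitted (0.0780), with a pseudocount of 10 (0.172) and after thinning (0.0560). In the adult knockout against wild type the difference was 1.52 (SE 0.47, adjusted p = 0.0658), and the groups did not overlap. It passed with a pseudocount of 0.1 (adjusted p = 0.00845), under median-of-ratios scaling (0.0497), in a fit of the 6 libraries (0.0434) and with voom (0.00323).

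Irf7 encodes the factor that amplifies type I interferon production. Its scaled counts were 2.84, 1.08 and 2.93 in P5 wild type, 8.17, 2.18 and 1.20 in P5 knockout, 0 in all of 1.5M wild type, and 6.23, 0.497 and 0.958 in 1.5M knockout. Replicate 1 of each knockout group was well above the other 2. The sum of the 4 regulators was likewise 10.55, 1.99 and 2.88 in the 1.5M knockout libraries, against 2.67 to 3.69 in 1.5M wild type. For Irf7 the differences were 1.47 (SE 0.60, limma adjusted p = 0.209) for adult knockout against wild type and -1.66 (SE 0.60, adjusted p = 0.120) for age in wild type. Both passed with a pseudocount of 0.1 (adjusted p = 0.0437 and 0.0257) and with voom (0.0301 and 0.00927). Stat2 had its lowest mean in the adult knockout, with 4.26, 4.34 and 1.95 in P5 wild type, 0.908, 4.36 and 2.40 in P5 knockout, 3.69, 2.15 and 0.889 in 1.5M wild type and 0.959, 0 and 0.479 in 1.5M knockout. The adult knockout libraries were the lowest 3 apart from an overlap with single libraries of the P5 knockout and the 1.5M wild type, and no comparison passed the test (adult knockout against wild type -1.09, SE 0.50, adjusted p = 0.303). Usp18, a protease that removes ISG15 and damps the receptor, stayed between 0 and 2.18.

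Of the 8 sensors of viral nucleic acid 7 were tested, all but Zbp1, and none of the 7 passed limma's adjusted threshold in any comparison. At an unadjusted p under 0.05, 1 was lower for age in wild type (Oasl2) and 1 for age in the knockout (Eif2ak2). Over all tested genes 18.2% and 14.2% passed at that level in either direction. Their summed level was 4.61 to 9.12 in P5 wild type, 6.18 to 9.84 in P5 knockout, 0.461 to 3.94 in 1.5M wild type and 2.73 to 4.32 in 1.5M knockout. Ifih1, which encodes the long double-stranded RNA sensor MDA5, was at 0.711, 1.08 and 4.88 in P5 wild type, 1.82, 1.46 and 3.60 in P5 knockout, 0, 0.715 and 1.78 in 1.5M wild type and 0.480, 0.497 and 0.479 in 1.5M knockout. In the knockout every adult library was below every P5 library for Ifih1 (log2 fold change -1.09, SE 0.54, limma adjusted p = 0.368). Eif2ak2 encodes PKR, the kinase that halts translation on binding double-stranded RNA. It was at 3.08, 0.271 and 0.977 in P5 wild type, 3.93, 1.46 and 1.20 in P5 knockout, 0, 0.358 and 0.889 in 1.5M wild type and 0, 0.497 and 0 in 1.5M knockout. Its age difference in the knockout was -1.38 (SE 0.52, limma adjusted p = 0.189) and passed only in the voom fit (adjusted p = 0.00990). Oas1a, an oligoadenylate synthetase that activates RNase L, ranged from 0 to 2.17. Its values were identical to those of Oas1g in every library, so molecules of the 2 copies cannot be told apart. Ddx58, Dhx58, Zbp1, Oasl1 and Oasl2 stayed at or below 2.13 in all libraries. Oasl2 passed for age in wild type only when P5 wild-type replicate 2 was left out (adjusted p = 0.0391).

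The antiviral effectors included Ifitm2 and Ifitm3, which passed in opposite directions with age in wild type. IFITM2 and IFITM3 are small membrane proteins that hinder fusion of viral and endosomal membranes. Ifitm2 (chr7:140954837-140955987, mm10) and Ifitm3 (chr7:141009586-141010770) lie 53.6 kb apart, and both hold the ISRE core letters printed above. Each had a fractional molecule count, a sign of a molecule shared with another gene, in 1 of 12 libraries.

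Ifitm3 was at 7.11, 5.42 and 5.86 in P5 wild type, 14.5, 13.1 and 15.6 in P5 knockout, 0 in all 3 libraries of 1.5M wild type, and 1.92, 1.99 and 3.59 in 1.5M knockout. The 4 groups did not overlap, in the order P5 knockout, P5 wild type, 1.5M knockout and 1.5M wild type. With age in wild type it fell by 2.83 on the log2 scale (SE 0.37, limma adjusted p = 2.2e-05), at least 7.37-fold lower against the floor, and with age in the knockout it fell by 2.17 (SE 0.37, adjusted p = 0.000752), from 14.4 ± 1.26 to 2.50 ± 0.948 (mean ± SD, n = 3). Both falls passed in every alternative fitted. In the adult knockout against wild type it rose by 1.78 (SE 0.37, adjusted p = 0.00313), at least 3.01-fold higher. That call was lost with a pseudocount of 10 (adjusted p = 0.150) and after thinning (0.0851). At P5 its mean was 2.35-fold higher in the knockout, with all 3 libraries above those of wild type, and the difference did not pass (1.12, SE 0.37, adjusted p = 0.149) except with a pseudocount of 10 (adjusted p = 0.00850). The knockout difference was not shown to change with age (0.66, SE 0.52, adjusted p = 0.657).

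Ifitm2 was at 14.9, 4.34 and 2.93 in P5 wild type, 12.7, 10.9 and 10.8 in P5 knockout, 24.0, 15.7 and 22.2 in 1.5M wild type and 12.5, 16.9 and 15.6 in 1.5M knockout. It was highest in the group where Ifitm3 was at 0. From P5 to 1.5M in wild type it rose by 1.62 (SE 0.37, limma adjusted p = 0.00984), 2.79-fold in the means. P5 wild-type replicate 1, at 14.9, was close to the adult values. The call was lost without P5 wild-type replicate 2 (adjusted p = 0.0574) or 3 (0.0695), without 1.5M wild-type replicate 1 (0.0552), in a fit of the 6 libraries alone (0.243) and after thinning (0.0692). Knockout and wild type overlapped at both ages (P5 0.84, SE 0.37, adjusted p = 0.339, and 1.5M -0.43, SE 0.37, adjusted p = 0.708). Without P5 wild-type replicate 1 the difference at P5 passed (1.44, adjusted p = 0.0214), as did the change of the knockout difference with age (-1.87, adjusted p = 0.0196).

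The other 9 effectors were sparse. Bst2, which encodes tetherin, a protein that holds budding virus at the membrane, was at 0, 0 and 2.93 in P5 wild type, 2.73, 2.18 and 1.20 in P5 knockout, 0.922, 0 and 0 in 1.5M wild type and 0.959, 1.49 and 1.92 in 1.5M knockout. Its adult knockout libraries were all above the adult wild type, without passing the test (0.96, SE 0.55, limma adjusted p = 0.467). Ifit1, Ifit2, Ifit3, Mx1, Mx2, Rsad2, Cmpk2 and Isg20, which include the classical markers of a strong type I interferon response, stayed at or below 2.40 in every library and were at 0 in all libraries of 1.5M wild type. Isg20, an exonuclease that degrades RNA, was at 0.908, 0.727 and 1.20 in P5 knockout and at 0 in all P5 wild-type libraries (0.95, SE 0.27, adjusted p = 0.0784). It was singled out after its values were seen.

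Isg15, which encodes the ubiquitin-like protein that is joined to newly made proteins, was at 0, 1.08 and 0.977 in P5 wild type, 1.82, 1.46 and 1.20 in P5 knockout, 0 in all of 1.5M wild type, and 1.44, 0.994 and 0 in 1.5M knockout. Every P5 knockout library was above every P5 wild-type library, by a difference that did not pass (0.63, SE 0.46, limma adjusted p = 0.636). Herc6, the main ligase for ISG15 in mice, had values above 0 in 3 libraries only, of 0.977, 0.908 and 1.44.

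The interferon GTPases act on the membranes of vacuoles that hold intracellular pathogens and are strongly induced by interferon gamma. None of the 5 passed limma's adjusted threshold in any comparison. At an unadjusted p under 0.05, 1, Gbp3, was higher at P5, where 12.8% of all tested genes passed in either direction. Their sum was at most 6.46 in any library. Gbp3 was at 0 in all libraries of both wild-type groups, at 1.82, 0.727 and 1.20 in P5 knockout and at 0.959, 0.497 and 0 in 1.5M knockout (P5 knockout against wild type 1.14, SE 0.34, limma adjusted p = 0.101). Its observed P5 knockout mean, from 4 molecules in all, was 1.39-fold the floor of the P5 wild type, with the error of that mean left out. Igtp lay between 0 and 2.73, Irgm1 between 0 and 1.20, and Ifi47 and Gbp2 between 0 and 0.977.

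The remaining 9 induced genes held 3 of the 4 adult knockout calls. Ifi44 (chr3:151730922-151749960), a gene of unsettled function induced by type I interferon, was at 3.55, 6.51 and 1.95 in P5 wild type, 5.45, 5.09 and 3.60 in P5 knockout, 0, 0.715 and 0 in 1.5M wild type and 7.19, 4.47 and 3.35 in 1.5M knockout. The adult wild type held 1 molecule in all and lay below every other library. In the adult knockout Ifi44 rose by 2.28 (SE 0.44, limma adjusted p = 0.00172), a ratio of pooled molecules of 18.1 with a 95% exact binomial interval of 3.02 to 737, and this call held in all alternatives fitted. That interval, like the others on ratios of pooled molecules, covers counting error only, and replicate libraries differed by more than that. With age in wild type it fell by 1.96 (SE 0.44, adjusted p = 0.00855), and that call was lost without P5 wild-type replicate 2 (0.0612), with a pseudocount of 10 (0.0591), in a fit of the 6 libraries (0.119) and after thinning (0.0865). Its knockout means at P5 and 1.5M were 4.71 ± 0.981 and 5.01 ± 1.97 (SD, n = 3), with a log2 difference of 0.04 (SE 0.44, limma adjusted p = 0.983).

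Ifi27l2a (chr12:103442167-103443680), which encodes a small protein of the ISG12 family, was at 7.82, 1.08 and 2.93 in P5 wild type, 5.45, 9.46 and 12 in P5 knockout, 0 in all of 1.5M wild type, and 6.23, 5.97 and 2.40 in 1.5M knockout. It rose in the adult knockout by 2.47 (SE 0.49, limma adjusted p = 0.00207), at least 5.85-fold, a call lost only with a pseudocount of 10 (0.0523). With age in wild type it fell by 2.06 (SE 0.49, adjusted p = 0.0131), at least 4.74-fold. That call was lost without P5 wild-type replicate 1, the highest of its group (0.0975), with a pseudocount of 10 (0.143), in a fit of the 6 libraries (0.166) and after thinning (0.0690).

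Lgals3bp (chr11:118392751-118402092), a secreted glycoprotein that binds galectins, was at 1.42, 6.51 and 6.84 in P5 wild type, 7.27, 2.18 and 3.60 in P5 knockout, 0, 1.43 and 0.889 in 1.5M wild type and 5.76, 3.48 and 6.71 in 1.5M knockout. Adult knockout libraries were all above adult wild type. It rose by 1.89 (SE 0.50, limma adjusted p = 0.0251), from 3 molecules to 33, a ratio of 6.42 with a 95% exact binomial interval of 2.01 to 32.7. The call was lost without 1.5M wild-type replicate 1 (0.147) or 3 (0.0552), without 1.5M knockout replicate 1 (0.107), 2 (0.0540) or 3 (0.158), with a pseudocount of 10 (0.0706), in a fit of the 6 libraries (0.0642) and after thinning (0.341). Its fall with age in wild type did not pass (-1.65, SE 0.50, adjusted p = 0.0562) except without P5 wild-type replicate 1 (0.0152) or with a filter on a mean of at least 2 (0.0227).

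Ly6e (chr15:74955051-74959905), which encodes a membrane-anchored protein that restricts entry of some viruses, had the highest mean scaled count of the 39 over all 12 libraries, though Ifitm2 had a higher mean in both adult groups. It was at 14.9, 29.3 and 25.4 in P5 wild type, 10.9, 26.2 and 15.6 in P5 knockout, 3.69, 5.01 and 5.33 in 1.5M wild type and 14.4, 5.47 and 13.9 in 1.5M knockout. Every adult wild-type library was below all other 9. With age in wild type it fell by 2.05 (SE 0.36, limma adjusted p = 0.000841), from 23.2 ± 7.43 to 4.68 ± 0.872 (SD, n = 3), in every alternative fitted. In the adult knockout against wild type the difference of 1.02 (SE 0.36, adjusted p = 0.130) did not pass, and it did without 1.5M knockout replicate 2, the lowest of its group (1.43, adjusted p = 0.0365), and with a filter on a mean of at least 2 (0.0491).

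**Figure D4:**
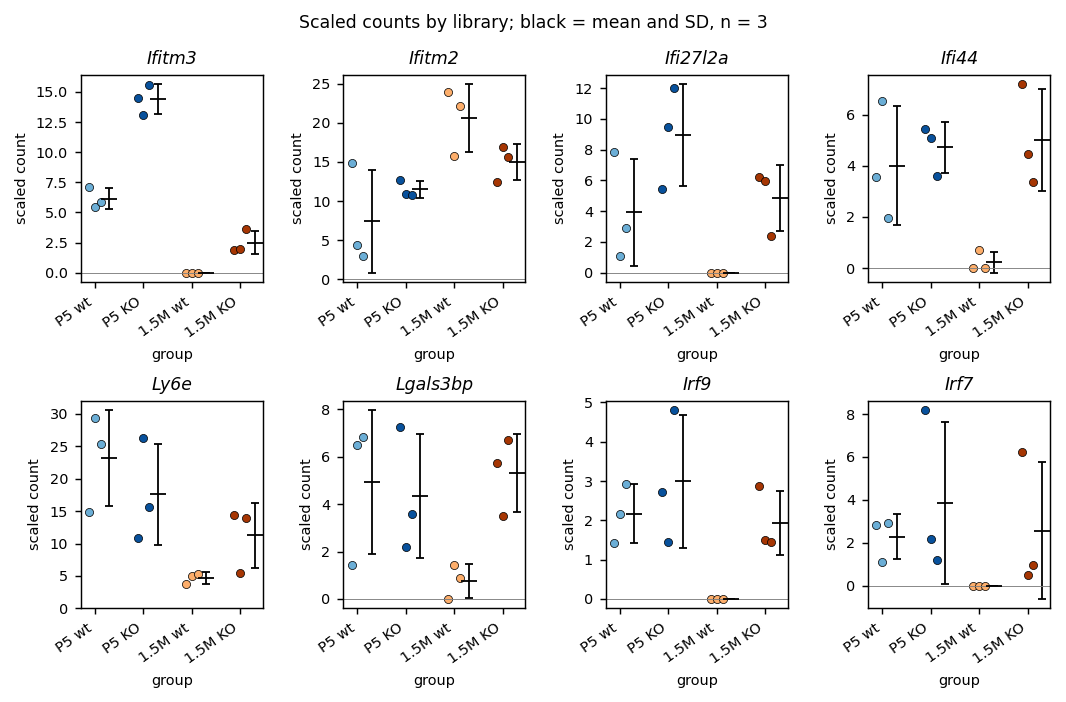
Scaled counts of 8 of the genes in each library (points) with the group mean and SD (black, n = 3), one panel per gene with its own axis. Ifitm3, Ifi27l2a, Irf9 and Irf7 are at 0 in all 1.5M wild-type libraries, whereas Ifitm2 is highest there, at 15.7 to 24.0.

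The other 5 induced genes did not pass limma's adjusted threshold in any comparison, with Trim30a in the adult knockout and Ifi35 with age in wild type and in the change of the knockout difference under an unadjusted p of 0.05. Over all tested genes 14.9%, 18.2% and 13.3% passed at that level in either direction, in the same order of comparisons. Ifi35 passed for adult knockout against wild type in a fit of the 6 libraries alone (adjusted p = 0.0434). Trim30a, singled out after its values were seen, was at 1.92, 2.49 and 4.79 in 1.5M knockout against 1.84, 0 and 0.889 in 1.5M wild type (1.15, SE 0.48, limma adjusted p = 0.231). Xaf1 ran from 0.872 to 4.01 and had fractional molecule counts in 11 of 12 libraries. Parp14 reached 5.45, Rtp4 5.09 and Ifi35 1.82.

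The ligands of the pathway were not seen. Of 21 interferon ligand genes listed, among them Ifnb1, Ifng and the alpha genes, 19 were matched and 0 were above 0 in any library, which at this depth allows a mean of up to 0.485 to 0.907 in a group. The other genes of the pathway came from a list of 40 receptors, kinases, STATs, interferon regulatory factors, sensing adaptors and negative regulators, of which 37 were tested. In the adult knockout against wild type 5 rose and 0 fell (background 3.24% and 2.04%), at P5 2 rose and 0 fell (background 1.15% and 0.649%), with age in wild type 0 rose and 3 fell (background 2.36% and 2.84%), and with age in the knockout 0 rose and 1 fell (background 1.72% and 1.43%). Of 66 further interferon-induced genes, 47 were tested. Among them 2 rose in the adult knockout, 1 rose in the P5 knockout and 1 fell with age in wild type, where 3.24%, 1.15% and 2.84% of all tested genes did.

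The receptor genes did not move alike. Ifnar1 was at 0, 0 and 1.95 in P5 wild type, 1.82, 0 and 2.40 in P5 knockout, 1.84, 2.86 and 2.67 in 1.5M wild type and 1.92, 2.98 and 1.92 in 1.5M knockout, and no comparison passed. Ifnar2 was at 14.9, 26.0 and 11.7 in P5 wild type, 11.8, 13.8 and 12 in P5 knockout, 0.922, 5.72 and 2.67 in 1.5M wild type and 13, 7.46 and 8.15 in 1.5M knockout. It fell with age in wild type by 2.28 (SE 0.39, limma adjusted p = 0.000548), a call lost in a fit of the 6 libraries (0.113). It rose in the adult knockout by 1.50 (SE 0.39, adjusted p = 0.0209), a call lost without 1.5M knockout replicate 1 (0.142), 2 (0.0570) or 3 (0.0674) and without 1.5M wild-type replicate 1 (0.152) or 3 (0.0620).

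Ifngr1 was at 2.13, 7.59 and 8.79 in P5 wild type, 19.1, 10.2 and 8.40 in P5 knockout, 0, 0.715 and 0 in 1.5M wild type and 6.23, 4.97 and 11.0 in 1.5M knockout. The adult wild type held 1 molecule. Ifngr1 rose in the adult knockout by 2.75 (SE 0.45, limma adjusted p = 0.000308), a pooled ratio of 26.8 with a 95% exact binomial interval of 4.58 to 1083. It fell with age in wild type by 2.42 (SE 0.45, adjusted p = 0.00156), a call lost in a fit of the 6 libraries (0.103), with a pseudocount of 10 (0.0502) and after thinning (0.0880). Ifngr2 lay between 1.46 and 10.6 with no call.

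Of the regulatory factors, Irf1, a factor induced by interferon gamma, was at 6.71, 5.97 and 4.79 in 1.5M knockout against 0.922, 0.715 and 1.78 in 1.5M wild type, and at 0 to 3.26 at P5. It rose in the adult knockout by 1.70 (SE 0.49, limma adjusted p = 0.0440), a call lost when any 1 of the 6 libraries compared was left out (adjusted p 0.0574 to 0.175), without P5 knockout replicate 2 (0.0529) and without P5 wild-type replicate 1 (0.0559). Irf8, a factor of myeloid development, was at 9.95, 13 and 9.77 in P5 wild type, 6.36, 16 and 4.80 in P5 knockout, 6.45, 3.58 and 0.889 in 1.5M wild type and 9.11, 11.4 and 12.5 in 1.5M knockout. It rose in the adult knockout by 1.57 (SE 0.43, adjusted p = 0.0324), and the call was lost without 1.5M knockout replicate 1 (0.0696), 2 (0.149) or 3 (0.167), 1.5M wild-type replicate 2 (0.0747) or 3 (0.226) or P5 wild-type replicate 1 (0.0547). It fell with age in wild type by 1.56 (SE 0.43, adjusted p = 0.0352), a call lost without any 1 library other than 1.5M wild-type replicate 1 and the 3 of P5 knockout (0.0516 to 0.207).

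**Figure D5:**
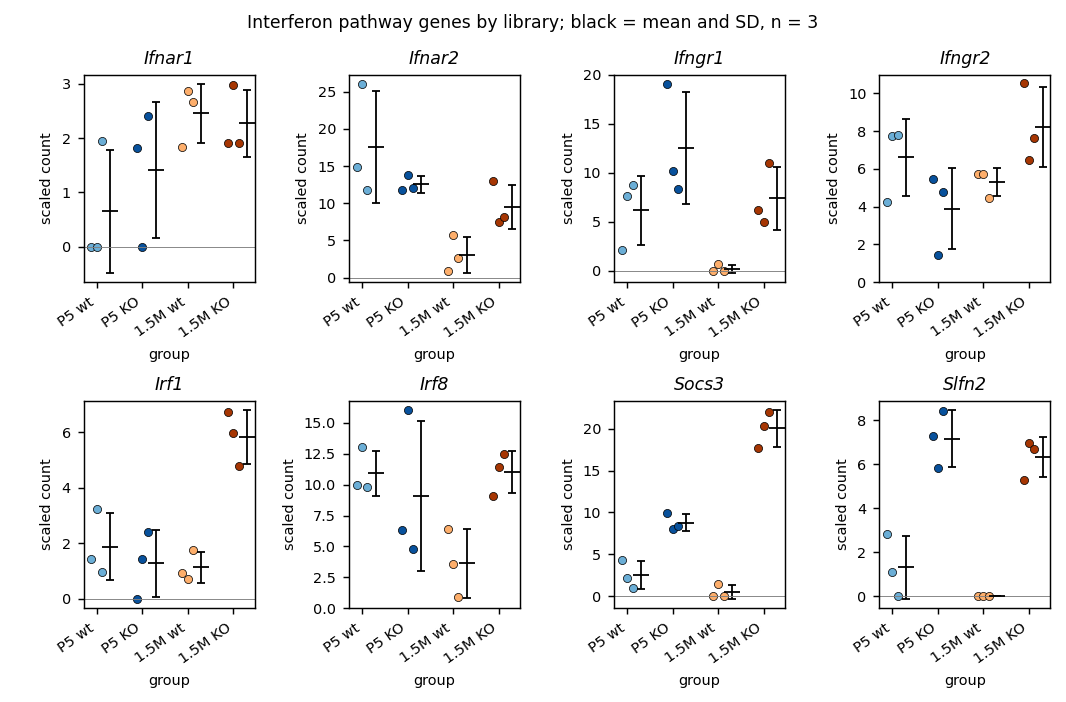
Scaled counts of 8 receptor, regulatory factor, feedback and schlafen genes in each library (points) with the group mean and SD (black, n = 3), one panel per gene with its own axis. Ifngr1, Socs3 and Slfn2 are at or near 0 in the 1.5M wild type, and Socs3 reaches 17.7 to 22.0 in the 1.5M knockout.

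Socs3, which encodes a feedback inhibitor of Janus kinase signalling by several cytokine receptors, had the largest fold change among the pathway genes that passed. It was at 4.26, 2.17 and 0.977 in P5 wild type, 9.99, 8.0 and 8.40 in P5 knockout, 0, 1.43 and 0 in 1.5M wild type and 17.7, 20.4 and 22.0 in 1.5M knockout. The 4 groups were in separate ranges apart from 1.5M wild-type replicate 2, which lay above P5 wild-type replicate 3. In the adult knockout Socs3 rose by 3.96 (SE 0.42, limma adjusted p = 6.33e-07), from 2 molecules to 124, a ratio of 36.2 with a 95% exact binomial interval of 9.81 to 302. At P5 it rose by 1.61 (SE 0.42, adjusted p = 0.0481), a call lost without any 1 library other than P5 wild-type replicate 1 and 1.5M wild-type replicate 2 (0.0501 to 0.206).

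Among the remaining calls, Slfn2, a schlafen gene needed for quiescence of T cells and monocytes, was at 7.27, 5.82 and 8.40 in P5 knockout against 2.84, 1.08 and 0 in P5 wild type. It was at 5.28, 6.96 and 6.71 in 1.5M knockout against 0 in all of 1.5M wild type. It rose at P5 by 2.02 (SE 0.46, limma adjusted p = 0.0236) and at 1.5M by 2.86 (SE 0.46, adjusted p = 0.000218), at least 7.59-fold in the adult. The P5 call was lost without P5 knockout replicate 1 (0.0784) or 3 (0.0811), P5 wild-type replicate 2 (0.0657) or 3 (0.121) or 1.5M knockout replicate 2 (0.0536) or 3 (0.0530). Shisa5, a p53-induced protein, rose in the adult knockout by 1.19 (SE 0.35, adjusted p = 0.0457), from 2.90 ± 1.60 to 7.44 ± 1.05 (SD, n = 3), and lost the call without 1.5M knockout replicate 1 (0.0813), 2 (0.162) or 3 (0.169), 1.5M wild-type replicate 2 (0.216) or 3 (0.109), P5 knockout replicate 1 (0.0548) or 2 (0.0515) or P5 wild-type replicate 1 (0.0551). Traf3, an adaptor of antiviral sensing, rose at P5 by 1.52 (SE 0.39, adjusted p = 0.0481), from 0 in all wild-type libraries to 1.82, 1.46 and 2.40, a call lost without any 1 library other than 1.5M knockout replicate 2 (0.0514 to 0.136). Slfn5 fell with age in wild type by 1.38 (SE 0.37, adjusted p = 0.0299), a call lost without 1.5M wild-type replicate 1 (0.133) or 2 (0.0557) or P5 wild-type replicate 1 (0.107) or 2 (0.0985). Trim25, the ubiquitin ligase of RIG-I, fell with age in the knockout by 1.88 (SE 0.46, adjusted p = 0.0232), from 12 molecules to 2, and lost the call without 1.5M knockout replicate 1 (0.108) or 3 (0.115) or P5 knockout replicate 1 (0.0714), 2 (0.0629) or 3 (0.0567).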

How the data were processed

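Per the labels' protocols, RNA of 100 sorted cells per tube was primed with barcoded oligo-dT, template-switched and amplified, with ERCC spike-ins added, and per the submitters' processing notes the reads were mapped with TopHat2 to mm10; their versions, and how molecules were counted and scaled, are not given in the sources used here. Values as deposited are a signal, namely molecule counts scaled to 37092 per library; dividing by each library's step gave whole numbers, within 0.01, for 92.65% to 94.92% of values, under the 95% asked for treating them as counts. They were tested with limma 3.58.1 in R 4.3.3 on log2(value + 1), with a trend, 4 group means over 12 libraries, genes above 0 in at least 3 libraries (10023), Benjamini-Hochberg adjustment, 5 comparisons and a threshold of 0.05, two-sided. The script was tested on simulated data. That simulation changed only genes with higher counts than most of the 39, so it does not cover the low ones. A floor is 3 molecules over a group. Gene coordinates are GENCODE M21 (mm10), promoters RefSeq GRCm38.p6. Every pair of same-group libraries differed beyond counting error (chi-square per degree of freedom 1.17 to 2.18), so none was merged. Alternatives were other pseudocounts (0.1, 10), filters and scalings, only the libraries compared, thinned libraries, voom, a replicate block, and leaving out each library. Genes are named if they passed in a comparison or had one of the 3 highest means of their role; of the other pathway genes, those that passed plus Irf1 and the 4 receptor genes; 1 further gene of that rule is not reported here. The 39 genes and all lists were chosen with earlier results of these data known.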

Additional observations from a re-analysis of the deposited data

Results flagged for a closer look

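Among the 37 tested genes of the set and the 37 tested pathway genes, Socs3 was the one whose knockout difference passed the test of a change between the ages. The knockout difference was 1.61 at P5 (2.47 ± 1.66 in wild type and 8.80 ± 1.05 in knockout, SD, n = 3) and 3.96 at 1.5M (0.477 ± 0.826 and 20.1 ± 2.17). The interaction term of the limma fit was 2.36 on the log2 scale (SE 0.59, adjusted p = 0.0340), with all 3 knockout libraries above all 3 wild-type libraries at each age. That call was lost without any 1 library other than 1.5M wild-type replicate 2 and P5 wild-type replicate 3 (adjusted p 0.0620 to 0.127), with a pseudocount of 0.1 (0.0996), under quantile normalization (0.0566) and after thinning (0.252).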

How the results depend on the processing

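Of 241 alternatives fitted for the calls of the 39 genes, 202 kept the direction and the call, 39 kept the direction and lost the call, and 0 reversed. The number of the genes called in the adult knockout against wild type, 4, was 1 with a pseudocount of 10, 2 after thinning, 6 with a pseudocount of 0.1 or with voom, 5 under median-of-ratios scaling, in a fit of the 6 libraries or with a filter on a mean of at least 2, and 3 to 4 when a library was left out. For age in wild type the number, 6, was 3 with a pseudocount of 10, 2 in a fit of the 6 libraries alone, 2 after thinning, 5 under median-of-ratios scaling or quantile normalization, 7 with a pseudocount of 0.1 or with voom, and 4 to 6 when a library was left out. Age in the knockout gave 2 with voom in place of 1, and 1 in each fit that left out a library. P5 knockout against wild type gave 1 with a pseudocount of 10 in place of 0, and 0 to 1 when a library was left out; the change of the knockout difference gave 1 with voom in place of 0, and 0 to 1 when a library was left out. Among all tested genes the calls of P5 knockout against wild type, 180 in the reported fit, were 92 with a pseudocount of 0.1, 118 with no filter, 0 in a fit of the 6 libraries and 72 after thinning. The calls of the adult comparison, 529, were 341 after thinning and 843 with voom; those of age in wild type, 522, were 111 in a fit of the 6 libraries and 256 after thinning; those of age in the knockout, 315, were 86 in that fit and 839 with voom; those of the change of the knockout difference, 200, were 133 with a pseudocount of 0.1, 107 after thinning and 330 with voom. Leaving out 1 library moved the counts over all tested genes by more than 1.5 times in these fits. P5 knockout against wild type gave 74 and 79 without P5 wild-type replicates 3 and 2, 89 without P5 knockout replicate 1, 115 without 1.5M wild-type replicate 2, and 117, 103 and 100 without 1.5M knockout replicates 1, 2 and 3. The adult comparison gave 336 without 1.5M knockout replicate 2. Age in the knockout gave 148, 149 and 143 without 1.5M knockout replicates 1, 2 and 3, and the change of the knockout difference gave 122 and 115 without replicates 2 and 3 of that group. With a replicate block the numbers of the 39 genes called were 0, 4, 5, 1 and 0 in the order P5 knockout, adult knockout, age in wild type, age in knockout and change of the difference, with the Irf9 fall with age in wild type losing its call (adjusted p = 0.0541); same-numbered libraries of different groups had deviation correlations of -0.021 to 0.029, so the numbers did not pair the libraries. Depth limits the set: 24 of 39 genes had means under 1.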
